A study of Mus musculus with 1012 samples.

Results

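A set of 6 genes that were lower in whole RAW macrophages after lipopolysaccharide (LPS) than in unstimulated ones is described here across every cell state of the data set. They were Exoc3l2, Pwwp2b, Dgkg, Mical1, Il21r and Asb10, 6 of the 30452 features in the count table, of which 29534 had at least 1 count. They were picked by name because they fell after LPS, or marked unstimulated cells, in the whole-cell profiles of RAW cells. Their values in those whole-cell RAW profiles are therefore given as a description, without a test. The rule named whole-cell RAW profiles, and not the cytoplasmic biopsies, the mesenchymal cells or the pairs of biopsies from the same cell. Marking of unstimulated cells may have been judged against mesenchymal whole cells, and earlier results of these data were known. Independence of those values from the choice is therefore not secured.

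The 1012 mouse profiles comprised 296 cytoplasmic biopsies drawn from living cells with a hollow probe (Live-seq), 162 whole cells of the post-Live-seq experiment, and whole single cells of the main experiment (scRNA-seq) for the rest. RAW264.7 is a macrophage-like mouse cell line, and almost all RAW profiles came from RAW-G9, a single clone in which the Tnf promoter drives mCherry and relA is fused to GFP. Untreated RAW cells are named RAW_Mock, and RAW cells sampled after LPS (4 to 5 h in the protocol for biopsies) are named RAW_LPS. RAW_Mock comprised 8, 20, 63 and 12 biopsies in batches 6, 7, 8_8 and 9_4, and 16, 46 and 95 whole cells in batches 8_8, 9_1 and scRNA. RAW_LPS comprised 50 biopsies in 5 batches, and 15, 46 and 88 whole cells in the same 3 whole-cell batches. The labels give 40 ng/µl LPS, and the study's methods state another dose, so the dose is uncertain. Wild-type RAW264.7 without the reporter contributed 11 RAW_LPS biopsies and 1 RAW_Mock biopsy, all in batch 5Reseq. IBA is an immortalized brown preadipocyte line, derived from brown fat of young male C57BL6/J mice (44 biopsies and 3 batches of whole cells). ASPC are primary mouse adipose stem and progenitor cells, profiled before (ASPC_Pre, 61 biopsies, 60 whole cells) and after an adipogenic cocktail (ASPC_Post, 37 biopsies, 35 whole cells). Counts were summed over the cells of each batch and state that had at least 3 cells, which gave 15 Live-seq and 12 scRNA-seq sums, and levels are in CPM, the counts of a gene scaled to the total of its sum. Nothing in the labels says that batches were separate cultures, so p-values measure the spread between batches, which may be technical.

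Total counts ranged from 41030 to 2671609 per whole cell (median 467677) and from 64547 to 1603790 per biopsy (median 506778.5). Biopsies held fewer genes than whole cells, with a median of 3302.5 genes in RAW_Mock biopsies against 8106 in RAW_Mock whole cells. The summed level of 10 macrophage markers was 2934 to 34874 CPM in RAW sums of both techniques. The summed level of 10 mesenchymal markers was at most 5.63 CPM in those sums, with Pdgfra, a defining marker, at 0 in all of them. The 12 genes of the LPS response list summed to between 422.7 and 2842 CPM in RAW_Mock whole cells and to between 11838 and 25581 CPM in RAW_LPS whole cells. In biopsies these sums were 791.2 to 5052 CPM in RAW_Mock and 10555 to 28097 CPM in RAW_LPS, with no overlap in either technique. The labels of the RAW groups therefore held in every sum.

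LPS is a component of the bacterial outer membrane that macrophages sense through TLR4, which activates NF-κB and interferon regulatory factors and switches on cytokine genes such as Tnf. The same stimulus also lowers many transcripts of resting macrophages. The 6 genes have different roles. Exoc3l2 is a relative of the exocyst subunit EXOC3, and the exocyst tethers secretory vesicles to the plasma membrane. Pwwp2b encodes a chromatin protein with a PWWP domain that associates with histone deacetylases of the NuRD type. Dgkg is a diacylglycerol kinase, which converts the second messenger diacylglycerol to phosphatidic acid. Mical1 is a flavin-dependent monooxygenase that oxidizes actin and disassembles filaments. Il21r is the receptor subunit for interleukin 21 and signals together with the common gamma chain through JAK and STAT proteins. Asb10 carries ankyrin repeats and a SOCS box, the motif that links substrates to cullin ubiquitin ligases.

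The genes lie apart in the genome (GRCm38): Exoc3l2 at chr7:19463331-19496762, Il21r at chr7:125603429-125633570 and Pwwp2b at chr7:139248482-139269903, all on the plus strand. Mical1 is at chr10:41476314-41487032 on the plus strand, Dgkg at chr16:22468461-22657221 and Asb10 at chr5:24532697-24540978, both on the minus strand. Mical1 shares 14.97% of its exon bases with Smpd2 on the opposite strand, and the counting ignored strand, so that reads from those bases cannot be assigned. Smpd2 was at 14.3 CPM over all RAW_Mock and 3.47 CPM over all RAW_LPS whole cells, and its part in the Mical1 values was not tested. Dgkg shares 74 exon bases with the antisense gene Gm15651, which had 59 and 0 counts. Promoter sequence from RefSeq (GRCm38.p6) was matched for 5 of the 6 genes, and Pwwp2b was not matched. The sequences of the 4 genes that were at or near 0 in mesenchymal cells are shown here, 250 bases before to 50 bases after the annotated start, 5′ to 3′ on the strand of the gene. Capitals mark matches to 8 short motifs searched on both strands.
Exoc3l2, chr7:19463037-19463336, plus strand: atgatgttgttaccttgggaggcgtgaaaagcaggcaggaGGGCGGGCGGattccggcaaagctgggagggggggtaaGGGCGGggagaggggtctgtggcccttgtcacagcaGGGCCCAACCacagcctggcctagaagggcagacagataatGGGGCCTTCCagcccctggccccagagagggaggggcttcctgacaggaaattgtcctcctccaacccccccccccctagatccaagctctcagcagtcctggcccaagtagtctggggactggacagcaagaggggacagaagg
Dgkg, chr16:22657182-22657481, minus strand: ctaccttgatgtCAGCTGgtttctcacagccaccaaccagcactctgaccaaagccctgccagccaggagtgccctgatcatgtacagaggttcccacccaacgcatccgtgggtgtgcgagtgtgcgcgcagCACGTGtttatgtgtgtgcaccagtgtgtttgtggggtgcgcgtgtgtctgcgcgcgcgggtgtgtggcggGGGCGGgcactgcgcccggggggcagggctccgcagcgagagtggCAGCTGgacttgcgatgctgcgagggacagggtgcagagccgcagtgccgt
Il21r, chr7:125603179-125603478, plus strand: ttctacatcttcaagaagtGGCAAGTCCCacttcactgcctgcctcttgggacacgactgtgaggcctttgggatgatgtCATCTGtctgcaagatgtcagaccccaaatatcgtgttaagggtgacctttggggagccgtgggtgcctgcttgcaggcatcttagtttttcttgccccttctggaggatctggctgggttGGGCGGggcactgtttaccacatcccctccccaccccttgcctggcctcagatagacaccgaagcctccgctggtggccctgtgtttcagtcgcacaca
Asb10, chr5:24540929-24541228, minus strand: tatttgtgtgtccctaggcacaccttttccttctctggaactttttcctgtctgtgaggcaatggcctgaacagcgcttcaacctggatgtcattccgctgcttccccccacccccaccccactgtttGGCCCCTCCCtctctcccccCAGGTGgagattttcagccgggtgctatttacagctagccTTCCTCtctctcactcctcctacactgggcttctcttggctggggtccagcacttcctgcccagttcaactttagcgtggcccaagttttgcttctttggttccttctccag

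The searched motif of PU.1, a factor of macrophage identity, was GAGGAA, which 28.3% of all 32851 promoters of that length hold, and 1 of 5 windows, that of Asb10, held it. The κB motif, read by NF-κB, was written as GGG and CC with any 5 bases between. It was found in 4 of 5 windows, against 50.8% of all promoters, with 2 matches at Exoc3l2 and 1 each at Il21r, Asb10 and Mical1. The SP motif was GGGCGG. It was found in 3 of 5 windows against 35.7%, with 3 matches at Exoc3l2, the first pair of which overlap each other, and 1 each at Dgkg and Il21r. The E-box was written as CA and TG with any 2 bases between, and stood in 4 of 5 windows against 72.3%. The Dgkg window held 3 of these, among them CACGTG, and the Il21r, Asb10 and Mical1 windows 1 each. The Mical1 window (chr10:41477760-41478059), whose RefSeq start lies inside the GENCODE gene, also held a TATAAA match on the reverse strand, against 13.6%. Motifs of IRF factors (GAAA repeated with any 2 bases between), AP-1 (TGANTCA) and C/EBP (TTGC and AA with any 2 bases between), in 3.44%, 7.81% and 10.8% of promoters, were in none of the 5 windows. The windows were 53% to 65% G and C, with a median of 52.7% over all promoters. These matches describe letters in a window and no site of binding.

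In whole cells 5 of the 6 genes were close to 0 after LPS, and Asb10 kept the highest level. Exoc3l2 stood at 65.6, 33.8 and 36.2 CPM in the RAW_Mock sums of batches 8_8, 9_1 and scRNA, and at 0.242, 0.275 and 0.780 CPM in the RAW_LPS sums of the same batches. The means were 45.2 ± 17.7 (SD, n = 3) and 0.432 CPM, a ratio of 104.6. Il21r was at 29.3, 17.4 and 26.1 CPM in RAW_Mock and had no count in any RAW_LPS whole cell. Its RAW_Mock mean was 507.7-fold a floor of 3 counts over the RAW_LPS group. That floor is a convention, since a RAW_Mock whole cell with a count held a median of 17 Il21r counts.

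Dgkg and Pwwp2b were lower by nearly the same factor. Dgkg was at 37.0, 10.1 and 33.01 CPM in RAW_Mock and at 0.484, 0.240 and 0.644 CPM in RAW_LPS, a ratio of 58.5. Pwwp2b was at 18.9, 13.5 and 26.95 CPM in RAW_Mock and at 0, 0.412 and 0.509 CPM in RAW_LPS, a ratio of 64.5. Mical1 was the lowest of the 6 in RAW_Mock, with 4.62, 10.1 and 17.7 CPM, and had 0, 0.893 and 1.93 CPM in RAW_LPS, a ratio of 11.5. Asb10 was at 31.2, 63.3 and 59.02 CPM in RAW_Mock and at 6.78, 11.3 and 2.61 CPM in RAW_LPS, a ratio of 7.40. All 6 genes were lower in RAW_LPS without overlap between the sums, as were 11.5% of the 13560 genes tested. In the fit 4 of the 6 were called lower at a false discovery rate (FDR) under 0.05 and an absolute log2 fold change above 1, where 173 genes (1.28%) were called in either direction and 44 (0.324%) were called lower, and nothing is read from these counts because the same contrast picked the genes. Il21r and Asb10 were the members not called there. The fold of a sum cannot separate fewer expressing cells from less RNA per cell, and the cells themselves are described next.

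**Figure D1:**
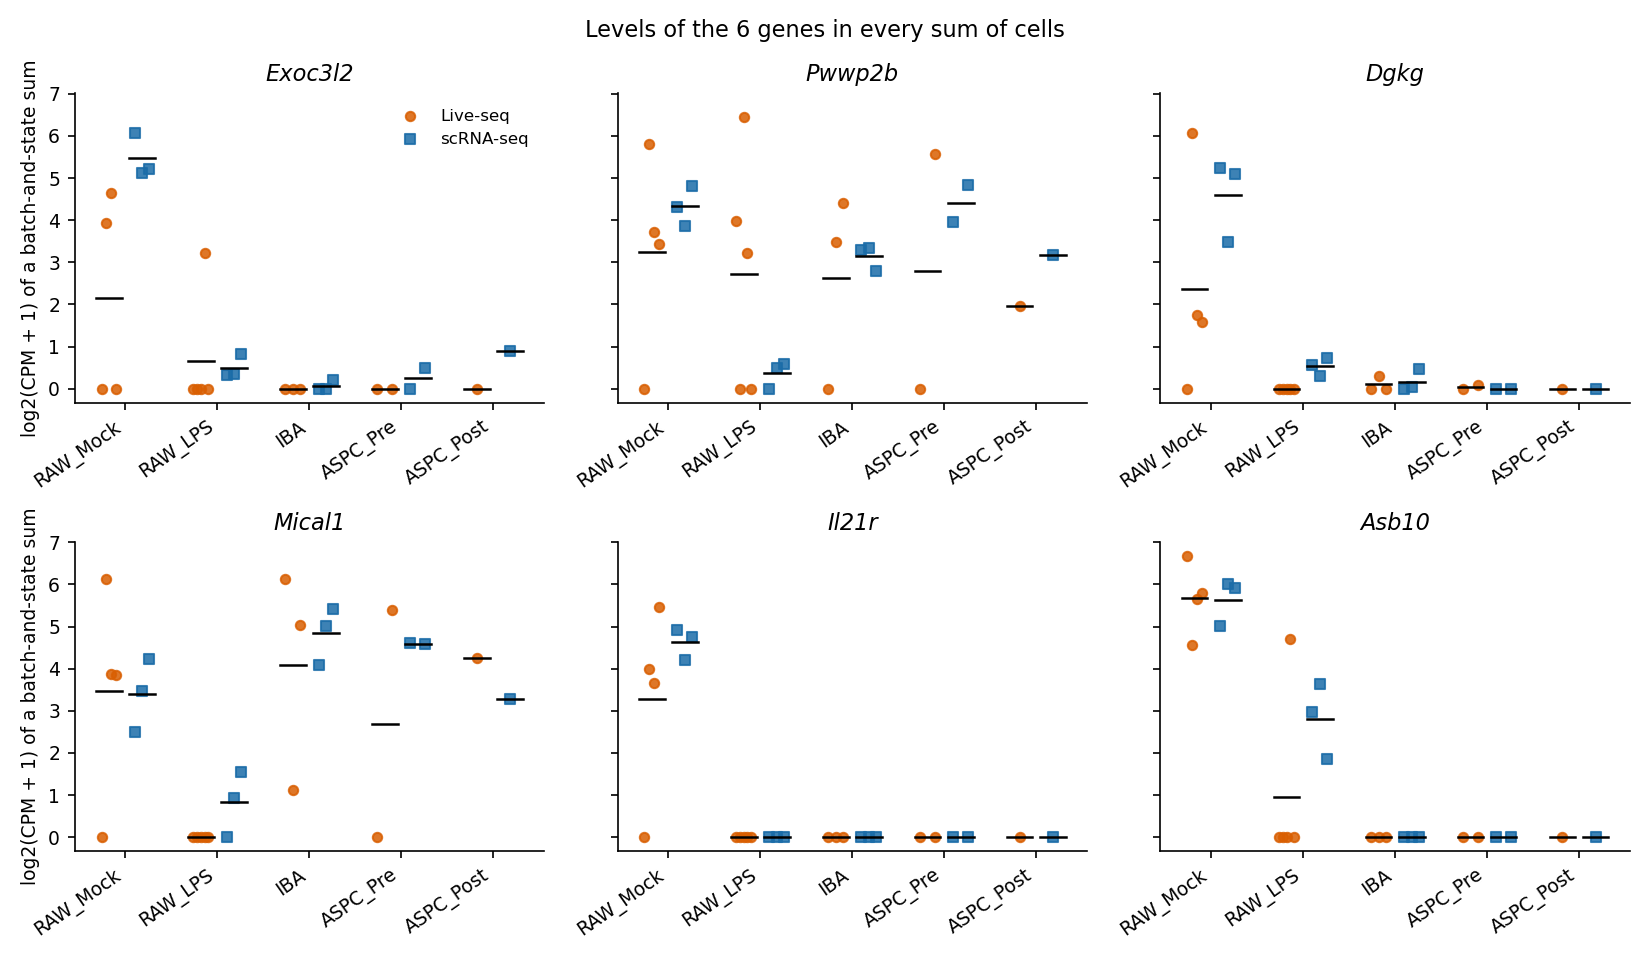
Levels of the 6 genes in each batch-and-state sum, as log2(CPM + 1), for Live-seq (circles) and scRNA-seq (squares), with a black line at the mean of each state. In scRNA-seq all RAW_Mock squares lie above all RAW_LPS squares for each gene, and Exoc3l2, Dgkg, Il21r and Asb10 lie at or near 0 in IBA and ASPC, where Pwwp2b and Mical1 do not.

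Most unstimulated whole cells showed several of the genes at once, and most LPS-treated cells showed none. Asb10 had a count in 135 RAW_Mock whole cells (85.99%, exact 95% interval 79.6 to 91.01) and Exoc3l2 in 130 (82.8%, 75.97 to 88.4). Dgkg had a count in 59.9% of them, Il21r in 45.2%, Pwwp2b in 44.6% and Mical1 in 33.1%. Among RAW_LPS whole cells the shares were 22.1% for Asb10 (33 cells), 6.71% for Exoc3l2 and 4.03% to 4.70% for Dgkg, Pwwp2b and Mical1. No RAW_LPS whole cell had a count of Il21r, which allows a share of up to 2.45% (exact 95% limit). Intervals and this limit treat the cells of all batches as independent draws and do not cover the spread between batches. Dgkg, for example, had a count in 75.0%, 34.8% and 69.5% of the RAW_Mock whole cells of batches 8_8, 9_1 and scRNA. Thinning each cell to 50000 counts lowered the shares, to 71.8% against 11.4% for Asb10 and 60.9% against 2.68% for Exoc3l2, and kept the order of the groups.

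Of the RAW_Mock whole cells, 4 had none of the 6 genes, 7 had 1, 20 had 2, 38 had 3, 57 had 4, 23 had 5 and 8 had all 6. The mean was 3.52 genes per cell, between 3.15 and 3.73 in the 3 batches. Among RAW_LPS whole cells 97 had none, 42 had 1 and 10 had 2, with a mean of 0.416. Thus no RAW_LPS whole cell showed 3 or more of the genes, which 80.2% of RAW_Mock whole cells did. In biopsies the count was lower throughout. Of the RAW_Mock biopsies 57 had none, 33 had 1, 12 had 2, 1 had 3 and 1 had 4, and of 50 RAW_LPS biopsies 43 had none and 7 had 1.

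**Figure D2:**
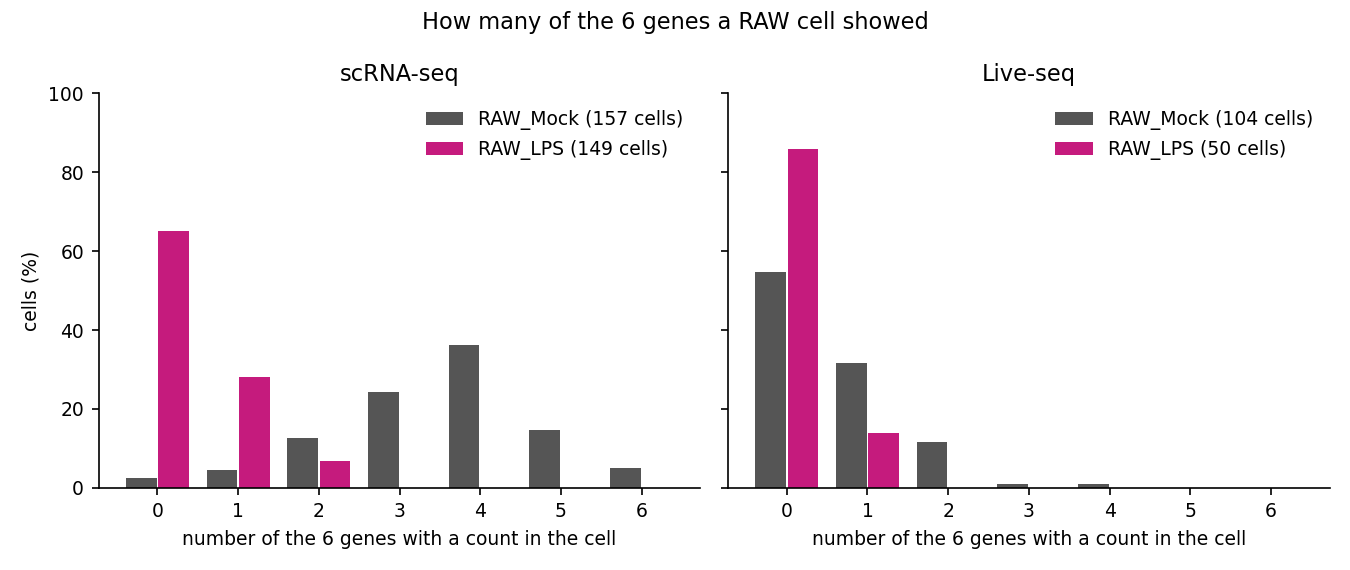
Number of the 6 genes with at least 1 count in a RAW cell, as a percent of the cells of each state, for scRNA-seq (left) and Live-seq (right). RAW_Mock whole cells peak at 4 genes, RAW_LPS whole cells at 0, and both states of biopsies at 0.

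**Figure D3:**
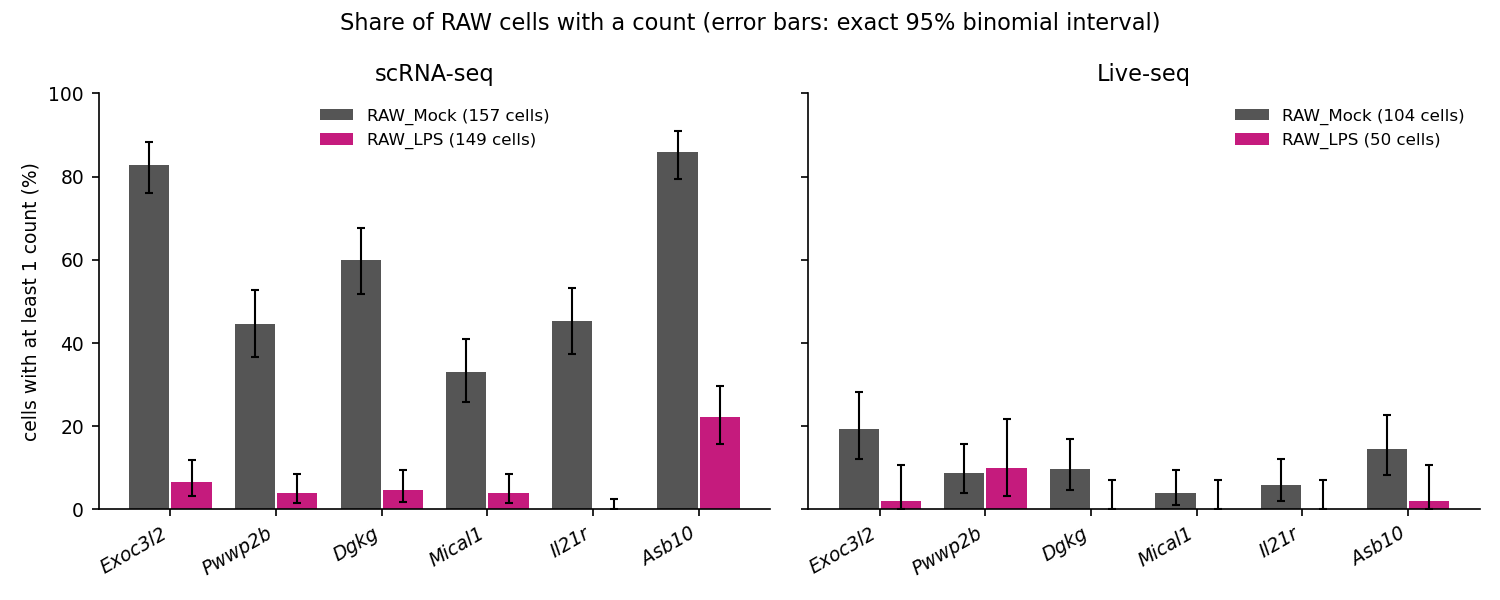
Percent of RAW cells with at least 1 count of each gene, with exact 95% binomial intervals as error bars, in whole cells (left) and biopsies (right). Whole-cell shares run from 33.1% to 85.99% in RAW_Mock and from 0 to 22.1% in RAW_LPS, and biopsy shares stay below 20% in both. Cells are pooled over batches, whose make-up differed between RAW_Mock and RAW_LPS biopsies.

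The 6 genes split into 4 that were at or near 0 outside RAW cells and 2 that were present in all cell types. Il21r and Asb10 had no count in any IBA, ASPC_Pre or ASPC_Post whole cell of the main experiment. Exoc3l2 was at 0, 0 and 0.155 CPM in IBA, 0 and 0.411 CPM in ASPC_Pre and 0.871 CPM in ASPC_Post, where it came from 4 cells. Dgkg was at 0, 0.0318 and 0.372 CPM in IBA and at 0 in ASPC. The highest macrophage marker sum among IBA whole-cell sums was 606.7 CPM, in batch 9_1, and Il21r, Asb10 and Exoc3l2 were at 0 in that sum.

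Mical1 and Pwwp2b behaved differently. Mical1 was at 16.1, 31.2 and 41.4 CPM in IBA and at 23.4 and 22.9 CPM in ASPC_Pre, above its mean of 10.8 ± 6.58 CPM (SD, n = 3) in RAW_Mock, although the lowest IBA sum lay below the highest RAW_Mock sum. In ASPC_Post, a single sum, Mical1 was at 8.71 CPM. Pwwp2b was at 8.76, 9.19 and 5.93 CPM in IBA, at 14.6 and 27.5 CPM in ASPC_Pre and at 8.01 CPM in ASPC_Post. Its ASPC_Pre sums overlapped its RAW_Mock sums, and its IBA sums lay below both. For both genes RAW_LPS was the lowest of the 5 states.

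IBA and ASPC_Pre were compared in the edgeR fit, a contrast that the rule for picking the genes did not name. None of the 6 passed the threshold, where 10.9% of all genes tested did. Pwwp2b was 1.72 ± 0.66 lower in IBA on the log2 scale (SE, edgeR FDR = 0.119). Mical1 differed by −0.51 ± 0.61 (edgeR FDR = 0.618), within its standard error. Exoc3l2 and Dgkg, at most 0.411 CPM in any of these sums, had edgeR FDR of 0.174 and 0.276. Il21r and Asb10 were at 0 in all 5 sums and could not pass. Nothing is therefore read from the lack of calls among the 6 genes.

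Live-seq gave biopsies of the same kinds of cells, which the rule for picking the genes did not name. There, Asb10 was lower after LPS within 4 of 4 batches, and Mical1, Dgkg and Il21r had no count in any of the 50 RAW_LPS biopsies. In an exact permutation test of each gene alone Asb10 had p = 0.0238, and 0.0571 without the batch of the wild-type line. For Mical1, Dgkg and Il21r that test gave p = 0.0476, and 0.143 without that batch. Their p depends only on which sums were at 0, so no fall is read from it. The fit across all genes called none of the 6, and Exoc3l2 and Pwwp2b passed neither test. Asb10 was at 101.03, 22.4, 49.3 and 54.15 CPM in the RAW_Mock sums of batches 6, 7, 8_8 and 9_4. In RAW_LPS it was at 25.2 CPM in batch 8_8 and at 0 in batches 5Reseq, 6, 7 and 9_4. Its means were 56.7 ± 32.7 (SD, n = 4) and 5.03 ± 11.3 CPM (SD, n = 5). The RAW_LPS sum of batch 8_8 rested on 36 counts in a single biopsy and lay above the lowest RAW_Mock sum, so the groups overlapped. The RAW_Mock sums of batches 6 and 7 also rested on a single biopsy each.

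Mical1, Dgkg and Il21r shared one pattern in biopsies, at 0 in all 5 RAW_LPS sums and in the RAW_Mock sum of batch 6, and above 0 in the other RAW_Mock sums. Mical1 was at 68.97, 13.6 and 13.4 CPM in RAW_Mock of batches 7, 8_8 and 9_4. Dgkg was at 66.4, 2.38 and 2.01 CPM in those batches. Il21r was at 14.8, 11.7 and 43.4 CPM. The Mical1 values rested on 4 biopsies in all, 1 each in batches 7 and 9_4 and 2 in batch 8_8. The batch 9_4 values of Dgkg and Il21r rested on 1 biopsy each. Each gene was lower after LPS within 3 of 4 batches and at 0 in both groups of batch 6, whose sums held 8 and 4 biopsies. The RAW_Mock mean was 182-fold a floor of 3 counts over the RAW_LPS group for Mical1, 134-fold for Dgkg and 133-fold for Il21r. That floor is a convention and no limit of detection. A RAW_Mock biopsy with a count held a median of 143.5 counts of Mical1, 7.5 of Dgkg and 82.5 of Il21r. These ratios also leaned on single batches. Without the RAW_Mock sum of batch 7 they were 11.1-fold for Dgkg and 68.5-fold for Mical1. Without that of batch 9_4 the ratio was 67.3-fold for Il21r.

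Exoc3l2, the gene with the second highest whole-cell share, was less clear in biopsies. Its RAW_Mock sums were 0, 14.3, 23.9 and 0 CPM in batches 6, 7, 8_8 and 9_4, and its RAW_LPS sums were 0 except for 8.39 CPM in batch 8_8, where 12 counts came from 1 biopsy. It was lower after LPS in 2 batches and at 0 in both groups of the other two. Pwwp2b was at 0, 54.8, 12.2 and 9.84 CPM in RAW_Mock and at 14.8, 0, 86.6, 8.39 and 0 CPM in RAW_LPS of batches 5Reseq, 6, 7, 8_8 and 9_4. Its means were 19.2 ± 24.3 (SD, n = 4) and 21.9 ± 36.7 CPM (SD, n = 5), and it was lower in 2 batches, higher in 1 and at 0 in both groups of 1. None of the 6 genes was lower in every RAW_LPS sum than in every RAW_Mock sum, which 1.37% of the genes tested were.

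In the edgeR fit of all Live-seq sums no gene was called between RAW_LPS and RAW_Mock, 0 of 13460 (0%), so the 6 genes were not called either, each with edgeR FDR = 1. At an unadjusted p under 0.05 the fit held 4% of the genes tested, and 2.85% of them were under that p and lower in RAW_LPS. Mical1, Asb10, Dgkg and Il21r were among the latter. DESeq2 called 5.55% of the genes on the same sums, Mical1 (DESeq2 FDR = 0.0279) and Asb10 (DESeq2 FDR = 0.00134) among them, and the edgeR 4 fit called 0. The fitted log2 difference was −12.04 ± 3.59 (SE) for Mical1, with unadjusted p = 0.00964, and −7.33 ± 2.72 for Asb10, with unadjusted p = 0.0267. It was −9.51 ± 3.59 for Dgkg (unadjusted p = 0.0286) and −9.87 ± 3.42 for Il21r (unadjusted p = 0.0323). For Exoc3l2 it was −2.81 ± 2.61 (unadjusted p = 0.322) and for Pwwp2b −0.03 ± 2.54 (unadjusted p = 0.992). The values of genes at 0 in a group depend on the prior count and are no measure of size, and the median over all genes tested was −0.48. Mical1, Dgkg and Il21r had no count in RAW_LPS biopsies, so they could only be lower or equal. Exoc3l2, Dgkg and Il21r also passed the filter on low counts through RAW_Mock whole cells alone.

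An exact permutation test of each gene alone, on the mean log2(CPM + 1) of the 4 RAW_Mock and 5 RAW_LPS sums, needs no model of the spread. The test exchanged sums freely between the groups and did not use the pairing of RAW_Mock and RAW_LPS within a batch. It was two-sided over 126 arrangements, with 6 tests and no adjustment, and the smallest p it allows is 0.00794. Asb10 was 4.72 lower in RAW_LPS on this scale (exact permutation p = 0.0238). Mical1 was lower by 3.46, Il21r by 3.28 and Dgkg by 2.36 (exact permutation p = 0.0476 for each). That p is fixed by the zeros, in all 5 RAW_LPS sums and 1 RAW_Mock sum, and is 6 of the 126 arrangements. Exoc3l2 differed by −1.50 (exact permutation p = 0.286) and Pwwp2b by −0.51 (exact permutation p = 0.881). Batch 5Reseq held the wild-type line and no RAW_Mock sum, and without it the exact permutation p was 0.0571 for Asb10 and 0.143 for Mical1, Il21r and Dgkg, where the smallest possible is 0.0286. Leaving out batch 7 or 9_4, or batch 8_8 for all but Asb10, or batch 6 for Asb10, also took the exact permutation p of these genes past 0.05, up to 0.143.

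The biopsies also differed in depth, whose part in these levels was not tested. RAW_Mock biopsies had a median of 284860.5 counts after gene removal and 3302.5 detected genes, and RAW_LPS biopsies 476472 counts and 3846 genes. Asb10 had a count in 15 RAW_Mock biopsies (14.4%, exact 95% interval 8.30 to 22.7) and in 1 of 50 RAW_LPS biopsies (2%, 0.0506 to 10.7). Exoc3l2 had a count in 20 RAW_Mock biopsies (19.2%) and in 1 RAW_LPS biopsy. Of those 20, 18 were from batch 8_8, which held 63 RAW_Mock but 9 RAW_LPS biopsies. Within that batch the shares were 28.6% (17.9 to 41.3) and 11.1% (0.281 to 48.3). The pooled shares thus mix state with an unequal make-up of batches. Dgkg was found in 10, Il21r in 6 and Mical1 in 4 RAW_Mock biopsies and in none of 50 RAW_LPS biopsies, which allows a share of up to 7.11% each (exact 95% limit). Pwwp2b was the exception, with 9 RAW_Mock (8.65%) and 5 RAW_LPS biopsies (10%). After thinning to 50000 counts the shares were 13.7% against 2.04% for Asb10 and 12.7% against 2.04% for Exoc3l2. For Mical1, Il21r and Dgkg the thinned RAW_Mock shares of 3.92%, 5.88% and 3.92% lay below the limit that 0 of 50 allows, so the biopsy shares alone could not show a difference at this number of cells.

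Asb10, Il21r and Mical1 were found in few biopsies but at a high level where found. Median levels in RAW_Mock profiles with a count were 209.1 CPM in biopsies and 53.1 CPM in whole cells for Asb10, 214.01 and 40.4 CPM for Il21r, and 256.2 and 31.6 CPM for Mical1. For Exoc3l2 they were 39.6 and 30.8 CPM and for Pwwp2b 34.1 and 28.04 CPM, and Dgkg was lower in biopsies, at 18.1 against 38.4 CPM. A single biopsy held 84.1% of the RAW_Mock Live-seq counts of Dgkg, 64.4% of those of Mical1 and 61.2% of those of Pwwp2b. For Asb10 the top biopsy held 16.1%, for Exoc3l2 27.9% and for Il21r 36.95%. In RAW_Mock whole cells the top cell held between 4.06% and 15.9% of the counts of a gene.

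**Figure D4:**
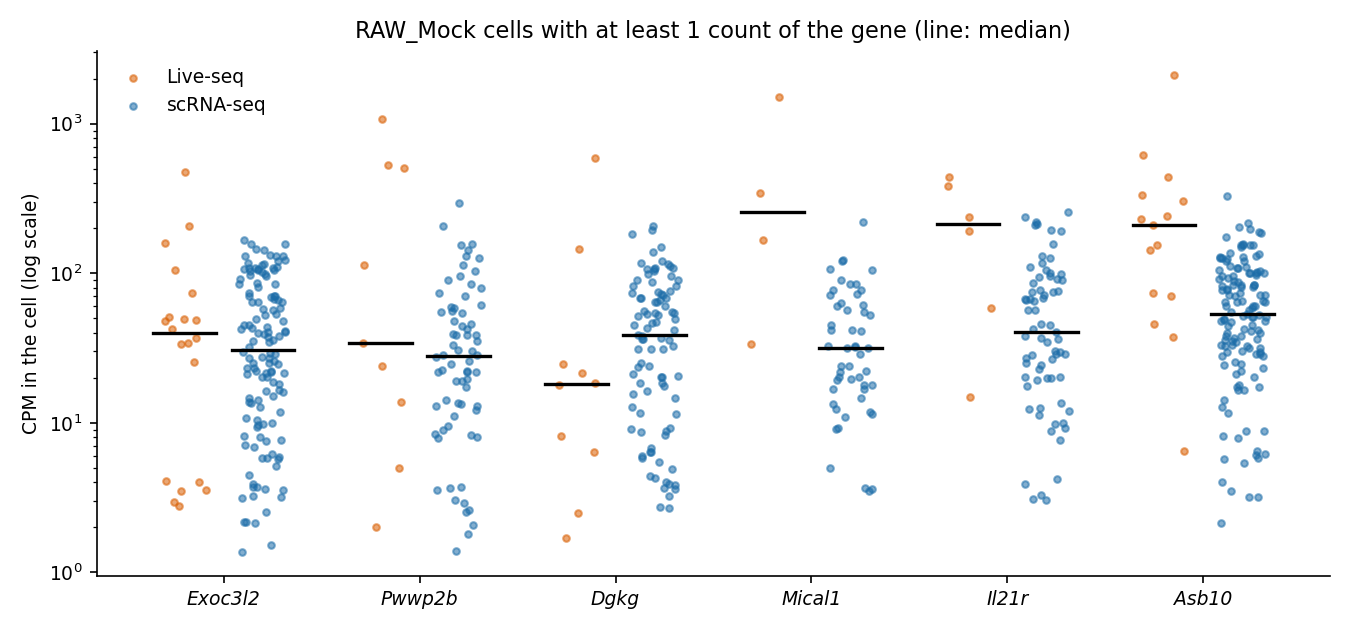
Level of each gene in CPM (log axis) in every RAW_Mock profile with at least 1 count of it, for Live-seq and scRNA-seq, with a line at the median. Biopsies with Mical1, Il21r or Asb10 have medians of 209.1 to 256.2 CPM against 31.6 to 53.1 CPM in whole cells, and for Dgkg the order is the reverse.

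Biopsies of the same RAW cell before and after LPS were available for 4 cells, which gave 24 values of a gene in a pair. In 19 of them the gene had no count in either biopsy, in 4 it had a count before LPS alone, in 1 after LPS alone, and in none in both. The cell of pair 19_27 had 17 counts of Asb10 (45.5 CPM) and 9 of Pwwp2b (24.1 CPM) before LPS and none of the 6 genes after it. The cell of pair 31_44, for which the labels number both biopsies as the first, had 16 counts of Asb10 (37.2 CPM) in the RAW_Mock biopsy and 0 in the RAW_LPS biopsy. In pair 2_3 Dgkg had 40 counts (145.3 CPM) before LPS and 0 after it, and Pwwp2b went from 0 to 709.2 CPM. Pair 7_12 had no count of any of the 6 genes. That biopsy of pair 2_3 held 52.9% of all Pwwp2b counts in RAW_LPS biopsies, so this cell set much of the Pwwp2b level of batch 7.

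In biopsies Asb10 had a count in every RAW_Mock sum, from 1 biopsy each in batches 6 and 7, and in no mesenchymal sum. Exoc3l2, Dgkg and Il21r were at 0 in 1 or 2 RAW_Mock sums and so overlapped the mesenchymal sums. Exoc3l2, Il21r and Asb10 had no count in any biopsy of IBA, ASPC_Pre or ASPC_Post, and Dgkg had 1 count in each of 2 biopsies. Mical1 was at 69.3, 1.16 and 31.7 CPM in the IBA sums of batches 7, 8_8 and 9_4, at 0 and 40.8 CPM in ASPC_Pre and at 18.1 CPM in ASPC_Post. Pwwp2b was at 0, 10.2 and 20.2 CPM in IBA, at 0 and 46.6 CPM in ASPC_Pre and at 2.88 CPM in ASPC_Post. Both genes thus ranged as widely within 1 mesenchymal state as between states.

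RAW_Mock was compared with the mean of IBA and ASPC_Pre in the same Live-seq fit, where 2.88% of the genes were called. None of the 6 was among them. Asb10 came closest, with a log2 difference of 13.39 ± 2.98 (SE, edgeR FDR = 0.0564). Il21r followed at 10.23 ± 2.81 (edgeR FDR = 0.169), then Exoc3l2 at 8.07 ± 3.21 (edgeR FDR = 0.299) and Dgkg at 6.02 ± 2.61 (edgeR FDR = 0.313). Mical1 and Pwwp2b differed by less than their standard errors, 1.34 ± 2.33 and −0.34 ± 2.90. Asb10 passed the threshold in 5 alternatives, among them the fit without the batch term (edgeR FDR = 0.0498) and the edgeR 4 fit (FDR = 0.0159). Exoc3l2, Dgkg and Il21r had entered the fit through RAW_Mock whole cells alone, the state in which they were high. Asb10 had entered through RAW whole cells alone, RAW_Mock and RAW_LPS. It had no count in any mesenchymal sum, so it could only come out higher here. The differences of these 4 genes, and the alternatives that Asb10 passed, are therefore given as values. For comparison, 9 of the 9 macrophage markers tested were called higher in this contrast and 7 of 10 mesenchymal markers lower.

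IBA whole cells of the post-Live-seq experiment, from 1 batch, gave levels without replicates. Mical1 was at 13.3 CPM (exact 95% interval 11.9 to 14.9) in cells that were never sampled, at 5.12 (4.21 to 6.17) 1 h after a biopsy and at 7.42 (6.14 to 8.88) 4 h after it. Pwwp2b was at 7.79 (6.72 to 8.98), 3.46 (2.72 to 4.34) and 6.73 CPM (5.51 to 8.13) in the same order. Both were thus lowest at 1 h, with no test possible for want of a second batch. The intervals cover the counting of reads only, and neither the spread between cells nor that from amplification. For these 2 genes a single cell held between 12.6% (Mical1, never sampled) and 45.8% (Pwwp2b, 4 h) of the counts of a group. Exoc3l2 was at 0.246, 0 and 0.189 CPM. Dgkg and Il21r had no count, and Asb10 had none before 4 h.

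On a scale that allows comparison between genes, CPM per kb of exon, Asb10 had the highest level of the 6 in RAW_Mock with both techniques, 18.2 in whole cells and 20.2 in biopsies. Exoc3l2 was second in whole cells at 11.2 and the fifth in biopsies at 2.38. Il21r was at 7.30 and 5.26, Pwwp2b at 3.32 and 3.22, Dgkg at 2.88 and 1.91 and Mical1 at 1.79 and 3.97 CPM per kb. In RAW_LPS whole cells Asb10 was still the highest at 2.46, and the other 5 were at most 0.156 CPM per kb. In RAW_LPS biopsies Pwwp2b was the highest at 3.68 CPM per kb. With 3 or 4 sums a group, the neighbours Pwwp2b and Dgkg in RAW_Mock lay within their spread of each other.

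The patterns of the genes over the 12 whole-cell sums were compared by Pearson correlation of log2(CPM + 1), as a description, since the sums share batches and cell types. These sums include the RAW whole cells on which the genes were picked. Likeness among the picked genes is therefore partly set by the choice, and nothing is read from it. Exoc3l2, Dgkg and Il21r followed each other, with r of 0.976 to 0.990, and each was among the 3 closest genes of the other two. Their other closest genes were Cbfa2t3 for Exoc3l2 (r = 0.974) and Dgkg (r = 0.987) and Myh7b for Il21r (r = 0.975). In mean, Cbfa2t3 was at 16.97 CPM in RAW_Mock and 0.821 CPM in RAW_LPS, and Myh7b at 16.8 and 0.786 CPM. Asb10 was closest to Lpar5 (r = 0.983), Cebpe (r = 0.977) and Klhl6 (r = 0.973), which kept 7.67, 3.46 and 25.5 CPM in RAW_LPS from 32.1, 6.59 and 141.6 CPM in RAW_Mock and were at or near 0 in mesenchymal cells. Mical1 was closest to R3hdm4 (r = 0.951), Pip4p2 (r = 0.948) and Lzts2 (r = 0.932), and Pwwp2b to Atg7 (r = 0.916), Aagab (r = 0.915) and Vps53 (r = 0.914). Over the 15 Live-seq sums the same pairs of genes correlated less. There r was 0.524 to 0.740 among Exoc3l2, Dgkg and Il21r, 0.517 for Asb10 with Lpar5 and −0.0351 with Cebpe, and 0.651, −0.0874 and 0.118 for Mical1 with R3hdm4, Pip4p2 and Lzts2. For Pwwp2b it was 0.420, 0.338 and 0.267 with Atg7, Aagab and Vps53. In whole cells Mical1 and Pwwp2b correlated at r = 0.777, and Mical1 with Asb10 at r = −0.411.

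Within a batch of RAW_Mock whole cells the correlations between the genes from cell to cell were mostly weak. The 45 correlations between pairs of the 6 genes, in batches of 16, 46 and 95 cells, ran from −0.468 to 0.469 with a median of 0.0783. Against Tnf, the 18 values ran from −0.265 to 0.419 with a median of −0.0440. The counts are sparse and the cells of a batch share their processing, so these weak values are a description and no finding. They cannot show whether the genes vary together or apart.

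Lists of relatives, without the 6 genes themselves, were tested in the scRNA-seq contrast of RAW_LPS and RAW_Mock, where the median log2 fold change of all genes was 0.00. Of all genes tested 0.951% were called higher and 0.324% lower, so few calls were to be found in lists of this length. With 1 batch left out the calls over all genes dropped to between 0% and 0.135%. Of 12 exocyst and EXOC3-like genes tested, 2 were called higher and none lower. They were Tnfaip2, an EXOC3-like gene known to be induced by TNF, from 57.3 ± 25.1 to 520.4 ± 166.7 CPM (log2 fold change 3.37 ± 0.32 SE, edgeR FDR = 0.00524), and Exoc3l4, from 8.41 ± 2.15 to 42.6 ± 11.2 CPM (2.47 ± 0.44, edgeR FDR = 0.0345), with n = 3 sums a group. Exoc3l, at 2.02 CPM in RAW_Mock, was not called (edgeR FDR = 0.687).

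Of 4 MICAL genes tested, Micall2 was called higher, from 8.95 to 50.04 CPM in mean (2.41 ± 0.45, edgeR FDR = 0.0402), and none lower. Mical3 was at 30.5 and 9.90 CPM (−1.52 ± 0.42, edgeR FDR = 0.139) and Mical2 at 6.56 and 3.25 CPM (edgeR FDR = 0.435), and neither was called. None of the 14 PWWP2 and NuRD genes, of 6 diacylglycerol kinases, of 9 common gamma chain and JAK-STAT genes or of 10 ASB family and CUL5 ligase genes was called in either direction. The medians of these 4 lists were −0.08, 0.21, 0.50 and 0.58. Pwwp2a, the paralogue of Pwwp2b, was at 14.4 and 8.58 CPM (edgeR FDR = 0.710), and Dgka at 2.86 and 1.65 CPM (edgeR FDR = 0.845). Il2rg, the common gamma chain that pairs with Il21r, was at 27.8 ± 21.4 CPM in RAW_Mock and 88.4 ± 42.3 CPM in RAW_LPS (edgeR FDR = 0.351). Asb1 was at 4.18 and 16.9 CPM (edgeR FDR = 0.122). In the Live-seq contrast no gene of these lists was called, as no gene of the whole table was. In mean over biopsy sums, Tnfaip2 was at 66.1 CPM in RAW_Mock and 581.9 in RAW_LPS, and Micall2 at 7.83 and 24.9, as in whole cells. Exoc3l4 went the other way, at 21.6 and 11.2 CPM. Mical3, Mical2, Pwwp2a and Dgka, lower in RAW_LPS whole cells, were higher in mean in RAW_LPS biopsies.

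**Figure D5:**
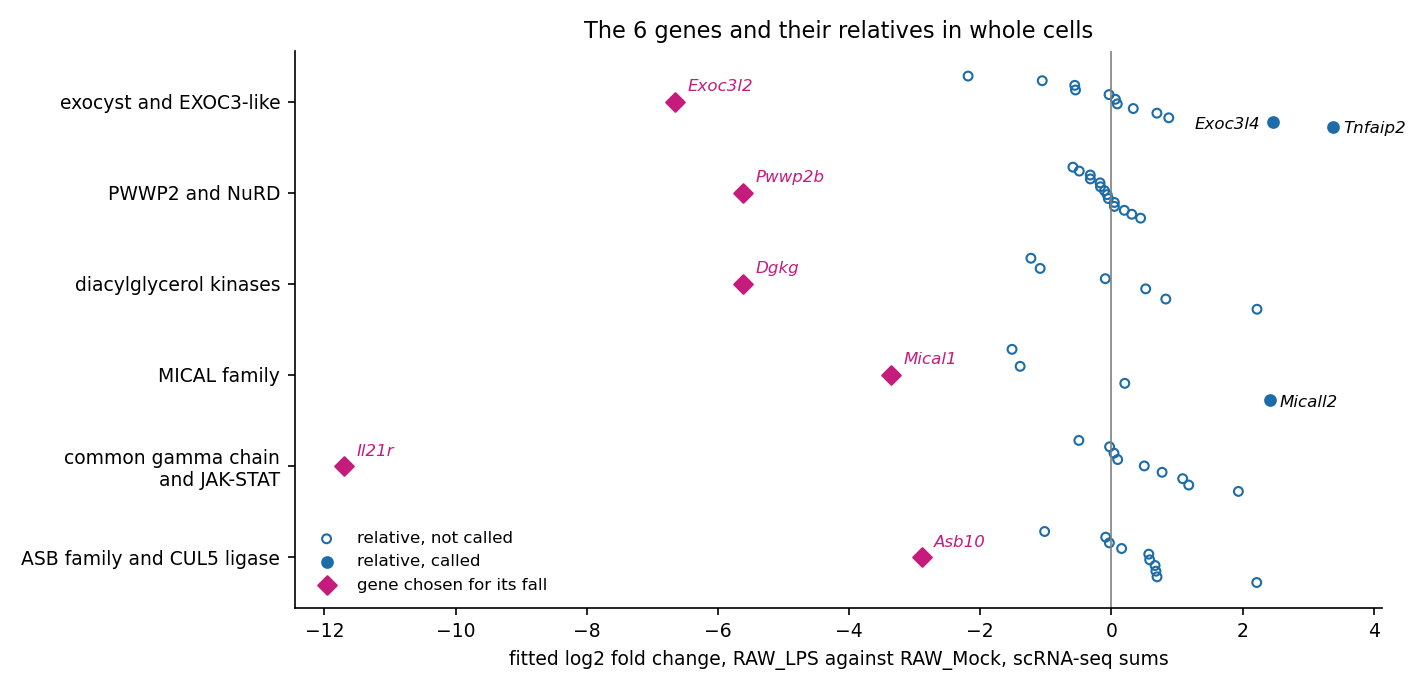
Fitted log2 fold change of RAW_LPS against RAW_Mock in scRNA-seq for the 6 genes (diamonds) and the tested genes of their family lists (circles, filled where called). The 6 genes lie between −11.70 and −2.89, where the value of Il21r, at 0 in RAW_LPS, depends on the prior count, and the 3 called relatives, Tnfaip2, Exoc3l4 and Micall2, lie between 2.41 and 3.37.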

How the data were processed

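The authors sequenced cytoplasmic biopsies and whole cells as full-length cDNA libraries and deposited 1 table of raw read counts per gene for all 1012 cells. Per the submitters' processing notes, base calls came from bcl2fastq 2.19.1, reads were aligned to mm10 with STAR 2.6.1c and counted with HTSeq, and the methods state that counting ignored strand. These counts are not normalized, and the reads carry no molecular identifiers, so amplification adds spread that counting intervals do not cover. Total counts per cell ran from 38451 to 2671609. All 1012 columns were used and 0 were left unused, and no pair of cells held identical counts.

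The 6 genes, the family lists and the motifs were chosen with earlier results of these data known. From the 30452 features, 91 genes of ribosomal proteins and 20 genes seen in empty control libraries were removed, following the study's methods, and 130 features had no symbol in the name table. CPM were computed over the counts that remained. Counts were summed per batch and state (at least 3 cells), and each technique was fitted on its own with edgeR 4.0.16 in R 4.3.3 (TMM, quasi-likelihood fit of the older kind, state plus batch). A gene was tested if 15% or more of the whole cells of any state held 2 or more of its counts and if it passed filterByExpr (minimum count 2, minimum proportion 0.05). A gene was called at Benjamini-Hochberg FDR under 0.05 and absolute log2 fold change above 1. Fold changes used a prior count of 0.125, and the SE was the absolute fold change over the square root of F. The code was tested on simulated data. Batch entered as a block because the labels give it for every cell. As a check, each sum's deviation from its group mean was correlated within a batch between RAW_Mock and RAW_LPS, which gave −0.0208 to 0.245 in Live-seq and 0.248 to 0.428 in scRNA-seq.

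Single genes were tested by exact permutation of log2(CPM + 1) over sums, without batch as a block (scipy 1.17.1). Shares of cells carry exact (Clopper-Pearson) 95% intervals, thinned shares used cells cut to 50000 counts, and floors were 3 counts. Gene positions and exon lengths came from the GENCODE annotation of GRCm38. All 6 genes were named in every sum. Relatives were named if called, at most 3 a list, plus the closest paralogues, and for likeness the 3 genes with the highest Pearson correlation over the 12 scRNA-seq sums. Alternatives were DESeq2 1.42.0, the edgeR 4 fit, other size factors, filters, prior counts and pseudocounts, no block, 1 batch left out and other depths of cells. Figures were drawn with matplotlib 3.10.9 under Python 3.11.15.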

Additional observations from a re-analysis of the deposited data

Results flagged for a closer look

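In 9 groups of 4 or 5 Live-seq sums 1 sum could be compared with the rest by Dixon's criterion, and 4 held a sum that stood apart, where chance gives about 1 in 20 groups of spread values. That rate does not apply to 2 of the 4, Exoc3l2 and Asb10 in RAW_LPS, where the other sums are all 0 and any count stands apart. Dgkg in RAW_Mock of batch 7 was at 66.35 CPM, against at most 2.38 CPM in the other 3 RAW_Mock sums. Pwwp2b in RAW_LPS of batch 7 was at 86.6 CPM, against at most 14.8 CPM in the other 4 sums. Exoc3l2 and Asb10 in RAW_LPS of batch 8_8 were at 8.39 and 25.2 CPM, with the other 4 RAW_LPS sums at 0. Outside the comparisons between states, Asb10 was at 0.314 CPM in IBA cells 4 h after a biopsy, from 5 counts in 1 cell, against no count in IBA cells that were not sampled.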

How the results depend on the processing

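The direction of the Live-seq difference between RAW_LPS and RAW_Mock held for Exoc3l2 and Asb10 under all 13 alternatives each. Dgkg, Mical1 and Il21r were at 0 in every RAW_LPS sum, so no alternative could turn theirs. The log2 values ran from −8.04 to −1.09 for Exoc3l2, −10.86 to −3.99 for Dgkg, −12.55 to −5.65 for Mical1, −10.33 to −5.16 for Il21r and −11.16 to −3.53 for Asb10. Pwwp2b turned from −0.03 to 0.0723 with RLE size factors, 0.0730 with DESeq2, 0.14 with the edgeR 4 fit, 0.0230 with all genes kept, 1.00 with sums from at least 1 cell, and −1.12 to 0.52 with 1 batch left out. Without the replicate block it was 0.40. The cause was not tested.

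The share of genes called between Live-seq RAW_LPS and RAW_Mock was 5.55% with DESeq2, 0.00414% with no filter on low counts and 0% to 0% with 1 batch left out, against 0%. Between Live-seq RAW_Mock and the mesenchymal cells it was 15.3% with DESeq2, 7.59% with the edgeR 4 fit, 4.49% with sums from at least 1 cell, and 0.179% (without batch 8_8) to 3.78% with 1 batch left out (0.545% without 9_4, 1.48% without 7), against 2.88%. Between scRNA-seq RAW_LPS and RAW_Mock it was 6.75% with DESeq2, 3.44% with the edgeR 4 fit and 0% (without batch 8_8) to 0.135% (without 9_1) with 1 batch left out (0.0295% without batch scRNA), against 1.28%. Between IBA and ASPC_Pre whole cells it was 18.997% with DESeq2, 19.6% with the edgeR 4 fit and 0.322% (without batch 9_1) to 11.3% with 1 batch left out (3.24% without batch scRNA), against 10.9%. Without the replicate block these shares were 0%, 6.31%, 0.258% and 7.15%, and removing the block also turned Mical1 to −0.45 and Pwwp2b to 0.0473 in RAW_Mock against the mesenchymal cells, and Mical1 to 0.11 in IBA against ASPC_Pre. In RAW_Mock against the mesenchymal cells, Mical1 was −0.18 with DESeq2 and −1.11 to 5.01 with 1 batch left out, and Pwwp2b −1.29 to 5.71. Exoc3l2 in IBA against ASPC_Pre ran from −5.44 to 3.81 with 1 batch left out. Pwwp2b in that contrast passed the threshold with DESeq2 (FDR = 0.0196) and the edgeR 4 fit (FDR = 0.0247).

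With 1 batch left out, the permuted differences in log2(CPM + 1) ran from −5.67 to −4.15 for Asb10, −4.62 to −2.57 for Mical1, −4.38 to −2.55 for Il21r, −3.14 to −1.12 for Dgkg, −2.05 to −0.74 for Exoc3l2 and −0.90 to 0.24 for Pwwp2b, and p was no longer under 0.05 in 16 of the 20 cases of Asb10, Mical1, Il21r and Dgkg. Without the wild-type batch the differences of these 4 genes were −4.49, −3.46, −3.28 and −2.36. Fewer sums allow no p under 0.0286.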
